A study of Homo sapiens with 12 samples.

Results

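MHC class I molecules display peptides from inside the cell to CD8+ T cells, and 9 genes of that route were followed here by their symbols in a gene table of 28813 entries. They are the heavy chain genes HLA-B, HLA-C and HLA-E, the light chain gene B2M, the peptide transporter genes TAP1 and TAP2, the loading chaperone gene TAPBP (tapasin), the immunoproteasome subunit gene PSMB8 and the transactivator gene NLRC5. All 9 were found in the table and passed a filter on the mean over all 12 libraries (at least 5). The cells were MKL-1, 1 established line of Merkel cell carcinoma, a neuroendocrine skin cancer. Every group received ethanol at 1%. The treated groups also received 3 µM EPZ011989, a small molecule inhibitor of EZH2, for 6 or 12 days, and the vehicle groups received ethanol alone for the same times. Each of these 4 groups held 3 libraries of polyA-selected RNA. The labels do not say whether the 3 were separate cultures, so p-values measure the spread between libraries, which may be technical.

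As background, EZH2 is the enzyme of Polycomb repressive complex 2, which marks histone H3 at silenced genes, and Merkel cell carcinomas are known for low class I expression. Proteasomes cut proteins into peptides, TAP carries the peptides into the endoplasmic reticulum, tapasin holds an empty heavy chain and B2M beside TAP, and the loaded complex travels to the surface. NLRC5 and the RFX factors act at the promoters of the heavy chain genes and B2M, and interferon gamma raises most genes of the route in many cell types. The comparison asks whether RNA of this route is higher when EZH2 is inhibited. Display at the surface was not measured, and no cell with normal class I levels was included, so a return to a normal level cannot be read from these libraries.

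The libraries held 15994997 to 20866370 estimated reads. Values are the authors' normalized signal, here called signal. Its exact normalization, and any part of transcript length in it, is not known, so levels of different genes are not compared. On the third principal component, replicate 1 among the day 12 vehicle libraries lay at -59.1, against -9.79 and 8.36 for the other 2. EZH2 had 2840.1 ± 103 and 2432 ± 67.4 signal in vehicle and treated cells at day 6 (mean ± SD, n = 3), and 2984 ± 42.4 and 1128 ± 142 at day 12, where it fell by 1.41 on the log2 scale. All 10 Merkel cell lineage markers passed the filter. By limma 1 of them rose and 6 fell at day 6, and 2 rose and 5 fell at day 12. ATOH1, at 10439 ± 619.9 in day 12 vehicle cells, passed at neither day (-0.03 and 0.06 log2). ISL1 (-0.53 and -0.91 log2) and INSM1 (-0.48 and -0.86) fell at both days, and CHGA rose at both (0.52 and 0.99). Of 12 leukocyte markers 3 passed the filter and CD3D was listed at 0 in every library. The leukocyte list summed to 245 to 292 signal in vehicle and 82.6 to 85.8 in treated libraries at day 6, and to 98.4 to 167 and 52.2 to 62.4 at day 12. Within it CD79B, a B cell receptor component, fell at both days (from 201 ± 41.1 to 29.6 ± 6.16 and from 83.0 ± 36.0 to 4.08 ± 3.20). Of 6 fibroblast markers 4 passed, and that list summed to 256 to 267 and 399 to 557 at day 6, and to 109 to 325 and 361 to 411 at day 12. COL1A1 of that list rose at both days (1.38 and 3.84 log2). Its vehicle level fell from 30.6 ± 13.8 at day 6 to 5.49 ± 2.39 at day 12 (-2.26 log2, limma adjusted p = 0.0361). DCN also rose at both days (0.95 and 0.68 log2), with overlapping libraries at day 12. COL1A2 (0.29 and 0.33 log2) and PDGFRA (0.04 and 1.57) did not pass. Of 5 endothelial markers 3 passed, and that list summed to 39.3 to 47.7 and 21.5 to 56.8 at day 6, and to 34.5 to 58.3 and 36.3 to 51.0 at day 12, where VWF rose (3.34 log2) and TEK fell (-1.31). The part of these markers in the results was not tested. In bulk libraries, fewer cells with an RNA and less of it per cell cannot be told apart.

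At day 12, 8 of the 9 genes passed the test. HLA-B, HLA-C, HLA-E, TAP1, TAP2, TAPBP and PSMB8 rose, B2M fell and NLRC5 did not pass. At day 6, 4 rose (HLA-B, HLA-E, TAP1 and PSMB8) and 0 fell by limma (0 also at an unadjusted p under 0.05, and 0 by edgeR among the 7 genes it tested, 5 of them on reads assigned only in part). The test was limma on log2(signal + 1) over 14946 genes, with a Benjamini-Hochberg adjusted p under 0.05. Of all tested genes 13.1% rose and 10.6% fell at day 6 (23.7% in either direction), and 30.6% rose and 29.2% fell at day 12 (59.7% in either direction). Calls were thus common across the transcriptome, above all at day 12. The median log2 fold change of the 9 was 0.42 at day 6 and 0.88 at day 12, and that of all tested genes was -0.02 and 0.03. Every treated library lay above every vehicle library of its day for 6 of the 9 genes at day 6 and 6 at day 12, which 20.8% and 32.7% of tested genes did. The reverse order held for 1 gene at each day, TAPBP and then B2M, and for 21.7% and 30.5% of tested genes. Log2 fold changes are on the log2(signal + 1) scale, which understates changes of low genes such as PSMB8.

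**Figure D1:**
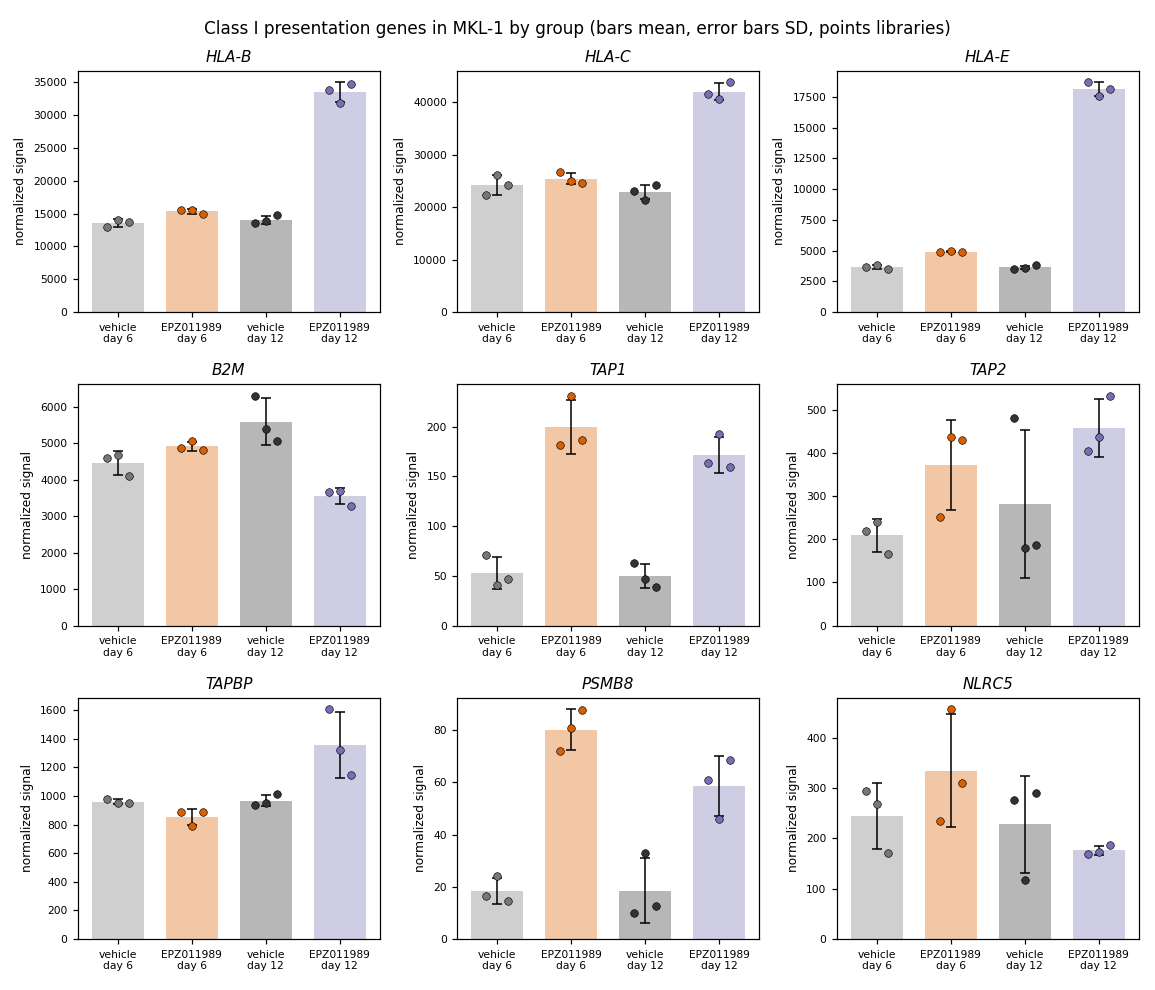
Normalized signal (vertical axes, linear from 0) of the 9 class I presentation genes in the 4 groups (horizontal axes), with bars for the mean, error bars for the SD and points for the 3 libraries. HLA-B, HLA-C and HLA-E stand highest in treated cells at day 12, TAP1 and PSMB8 are raised at both days, and B2M is lowest in treated cells at day 12.

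The 3 heavy chain genes rose mostly between day 6 and day 12. HLA-E, which presents leader peptides of other class I chains and is the ligand of the NKG2A receptor on NK cells (chromosome 6, 30489509 to 30494194, GRCh38.p14), had 3646, 3840.3 and 3532 signal in day 6 vehicle cells and 4885, 4950.0 and 4875 in treated cells. At day 12 its vehicle libraries held 3526, 3567 and 3796 and its treated libraries 18679, 17531 and 18124. The groups did not overlap at either day, and the 3 treated day 12 libraries stood far above the other 9. The ratio of the means was 1.33 at day 6 (log2 fold change 0.42 ± 0.05 SE, limma adjusted p = 2.99e-05) and 4.99 at day 12 (2.32 ± 0.05, limma adjusted p = 2.83e-13). Vehicle cells at day 12 against day 6 gave -0.02 ± 0.05 log2. Salmon reads assigned to HLA-E held 0.0445% of its table level and edgeR did not test it, so its values rest on the table alone.

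HLA-B, a classical heavy chain that presents peptide to T cells (chromosome 6, 31353875 to 31357179), had 12932, 14013 and 13719 signal in day 6 vehicle cells and 15631, 15599.5 and 14960.1 in treated cells. At day 12 the vehicle libraries held 13549.9, 13839.5 and 14769 and the treated libraries 33916, 31808 and 34788. Treated libraries were above all vehicle libraries of their day at both times, narrowly at day 6. The ratio of means was 1.14 at day 6 (0.18 ± 0.05 log2, limma adjusted p = 0.0132) and 2.38 at day 12 (1.25 ± 0.05 log2, limma adjusted p = 5.52e-11). The day 6 call was lost when replicate 1 of its vehicle group was left out (limma adjusted p = 0.0573), when replicate 1 of its treated group was left out (0.0509), and in limma without the trend (0.0657).

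HLA-C, a classical heavy chain and ligand of inhibitory receptors of NK cells (chromosome 6, 31268749 to 31272092), had 22339.5, 26187 and 24136 signal in day 6 vehicle cells and 26632, 25052 and 24587 in treated cells, which overlap. Its day 12 vehicle libraries held 23124, 21380.5 and 24170.4 and its treated libraries 41623, 40643 and 43808, with no overlap. At day 6 its difference of 0.07 ± 0.06 log2 did not pass (limma adjusted p = 0.431; -0.11 ± 0.07 by edgeR on its assigned reads), and at day 12 it rose by 0.88 ± 0.06 log2 (ratio of means 1.84, limma adjusted p = 2.13e-08). Heavy chain genes resemble each other closely and vary between people, so how reads were divided among them is not certain.

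HLA-F, a non-classical chain, was at 25.4 ± 0.725 and 21.9 ± 7.42 signal in vehicle and treated cells at day 12 and did not pass (0.31 log2 at day 6 and -0.26 at day 12). HLA-G, also non-classical, was listed at 0 in all 12 libraries.

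The light chain gene moved against the heavy chain genes at day 12. B2M, which class I heavy chains need to fold and leave the endoplasmic reticulum (chromosome 15, 44711517 to 44718145), had 4593, 4681 and 4089 signal in day 6 vehicle cells and 4863, 5058 and 4805 in treated cells. Vehicle libraries of day 12 held 6298, 5387 and 5056 and treated libraries 3662, 3683 and 3288. Treated libraries lay slightly above vehicle at day 6 and below it, without overlap, at day 12. The day 6 difference of 0.14 ± 0.08 log2 did not pass (limma adjusted p = 0.224), and at day 12 the log2 fold change was -0.65 ± 0.08 (ratio of means 0.635, limma adjusted p = 7.80e-06). Without replicate 1 of the vehicle group, the library apart from its group, it was -0.56 (limma adjusted p = 1.71e-05). Vehicle cells themselves had 4454 ± 319 signal at day 6 and 5580.5 ± 644 at day 12 (0.32 ± 0.08 log2, limma adjusted p = 0.0607). Salmon reads that could be assigned to B2M held 63.3% of its table level, and on those edgeR did not call the fall (-0.24 ± 0.18 log2 at day 12, edgeR adjusted p = 0.241).

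Promoter windows of 7 of the 9 genes were found in RefSeq (GRCh38.p14). The 250 bases before the first listed start site are shown for HLA-B, HLA-C and B2M, whose RNA went opposite ways at day 12, and for TAP1 and TAPBP, of which TAP1 alone rose by day 6. Capitals mark matches on either strand to 5 motifs. They are the long interferon response motif (GAAA, any 2 bases, GAAA), the short one (GAA, any 2 bases, GAAA), the kappa B motif (GGG, any 2 bases, TT, any base, CC), the Y box core CCAAT and the X2 box core TGACG.
HLA-B, chr6:31357180-31357429, minus strand: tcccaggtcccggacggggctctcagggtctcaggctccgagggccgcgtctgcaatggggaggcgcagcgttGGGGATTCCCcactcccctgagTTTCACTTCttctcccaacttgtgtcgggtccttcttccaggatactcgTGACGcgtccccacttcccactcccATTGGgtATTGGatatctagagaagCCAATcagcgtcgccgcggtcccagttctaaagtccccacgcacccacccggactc
HLA-C, chr6:31272093-31272342, minus strand: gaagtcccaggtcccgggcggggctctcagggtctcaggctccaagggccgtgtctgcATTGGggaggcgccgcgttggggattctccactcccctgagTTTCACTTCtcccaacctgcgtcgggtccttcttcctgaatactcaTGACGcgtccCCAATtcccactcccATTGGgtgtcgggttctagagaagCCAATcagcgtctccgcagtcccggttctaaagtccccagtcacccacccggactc
B2M, chr15:44711267-44711516, plus strand: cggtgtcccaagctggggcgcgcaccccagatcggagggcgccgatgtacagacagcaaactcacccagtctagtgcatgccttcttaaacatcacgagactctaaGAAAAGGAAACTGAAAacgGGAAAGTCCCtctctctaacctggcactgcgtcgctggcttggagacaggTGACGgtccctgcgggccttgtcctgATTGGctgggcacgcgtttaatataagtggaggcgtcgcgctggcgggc
TAP1, chr6:32853705-32853954, minus strand: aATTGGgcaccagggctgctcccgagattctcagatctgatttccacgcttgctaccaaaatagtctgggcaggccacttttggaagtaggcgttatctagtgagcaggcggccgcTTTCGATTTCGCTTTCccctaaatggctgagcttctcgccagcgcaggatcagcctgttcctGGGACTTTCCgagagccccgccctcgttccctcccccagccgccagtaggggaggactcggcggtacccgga
TAPBP, chr6:33314079-33314328, minus strand: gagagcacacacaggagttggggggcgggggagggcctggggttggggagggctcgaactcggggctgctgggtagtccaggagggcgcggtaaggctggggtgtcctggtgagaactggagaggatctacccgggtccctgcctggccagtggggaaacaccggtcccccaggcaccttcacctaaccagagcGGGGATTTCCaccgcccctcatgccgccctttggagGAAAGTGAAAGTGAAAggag

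HLA-B, HLA-C and B2M each held TGACG and CCAAT, the latter at 3, 4 and 1 places, whereas TAPBP held neither and TAP1 held CCAAT alone of the pair. The long interferon motif matched at 2 overlapping places each in B2M, TAP1 and TAPBP, and the short one at 1 place each in HLA-B and HLA-C. The kappa B motif was found once in each of HLA-B, B2M, TAP1 and TAPBP. TAP2, not shown, held TGACG and both interferon motifs, which overlap there, and the first of 2 PSMB8 start sites had TGACG alone. Of 35116 RefSeq windows of the same length 3.02% held the long interferon motif, 6.56% the short one, 5.07% the kappa B motif, 32% CCAAT and 21.2% TGACG. A match is a run of letters, not a measured binding site. HLA-B and B2M, which differed in direction at day 12, both held the kappa B motif, CCAAT and TGACG.

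Transporter RNA was raised early for TAP1. This ATP-binding subunit of the transporter (chromosome 6, 32845209 to 32853704) had 71.0, 41.0 and 46.8 signal in day 6 vehicle cells and 182, 231 and 186 in treated cells. At day 12 TAP1 had 62.6, 46.6 and 39.1 in vehicle and 163, 192 and 159 in treated cells. The groups stood clear of each other at both times. The ratio of means was 3.77 at day 6 (1.93 ± 0.25 log2, limma adjusted p = 7.07e-05) and 3.47 at day 12 (1.80 ± 0.25, limma adjusted p = 2.31e-05). Summed Salmon reads, which held 102.8% of the TAP1 table level, numbered 35 to 56 per vehicle library and 169 to 238 per treated library over both days. On those reads edgeR gave 2.11 ± 0.21 log2 at day 6 and 1.91 ± 0.21 at day 12.

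TAP2, the other subunit of the transporter (chromosome 6, 32821831 to 32838739), had 219, 241 and 167 signal in day 6 vehicle cells and 252, 437 and 431 in treated cells. At day 12 TAP2 had 481, 179 and 186 in vehicle and 405, 438 and 533 in treated cells. The groups were apart at day 6, where 1 treated library lay close to vehicle, and overlapped at day 12 through the high vehicle replicate 1. Its difference of 0.81 ± 0.33 log2 at day 6 did not pass (limma adjusted p = 0.0915), and at day 12 it rose by 0.85 ± 0.33 log2 (limma adjusted p = 0.0362). With that vehicle library left out, both days passed (0.81 log2, limma adjusted p = 0.0134 at day 6, and 1.32 log2, adjusted p = 3.74e-04 at day 12). Day 6 also passed without replicate 1 of its treated group (1.07 log2, limma adjusted p = 0.0479). The day 12 call was lost without vehicle replicate 2 (limma adjusted p = 0.152) or 3 (0.142), and without treated replicate 2 (0.0659) or 3 (0.111). It was also lost in limma without the trend (0.0760), with the day 12 libraries alone (0.0586) and with the replicate block (0.0509), while day 6 passed with the day 6 libraries alone (0.0304).

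TAPBP, which bridges TAP and the empty heavy chain (chromosome 6, 33299694 to 33314078), had 977, 954 and 948 signal in day 6 vehicle cells and 888, 789 and 885 in treated cells. At day 12 TAPBP had 939, 948 and 1012 in vehicle and 1605, 1320.2 and 1143 in treated cells. Treated libraries were below vehicle at day 6 and above it at day 12, with a wide spread among the latter. The day 6 difference of -0.17 ± 0.11 log2 did not pass (limma adjusted p = 0.276), and at day 12 it rose by 0.48 ± 0.11 log2 (ratio of means 1.40, limma adjusted p = 0.00144).

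Of 7 other genes of the loading complex and its chaperones, 2 fell and 0 rose at day 6 by limma (0 rose at an unadjusted p under 0.05), and 4 fell and 1 rose at day 12. CALR, or calreticulin, a chaperone of the heavy chain, fell at both days (-0.23 and -0.12 log2), and CANX, or calnexin, fell at day 12 (-0.20). The disulfide isomerase gene PDIA3 was at 6831 ± 62.2 and 6509 ± 386 signal in vehicle and treated cells at day 12 and did not pass. TAPBPL, a tapasin relative that edits peptides, had 0.42 log2 at day 6 and 0.08 at day 12, neither past the test. HSPA5, an endoplasmic reticulum chaperone, was the gene that rose (0.13 log2).

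**Figure D2:**
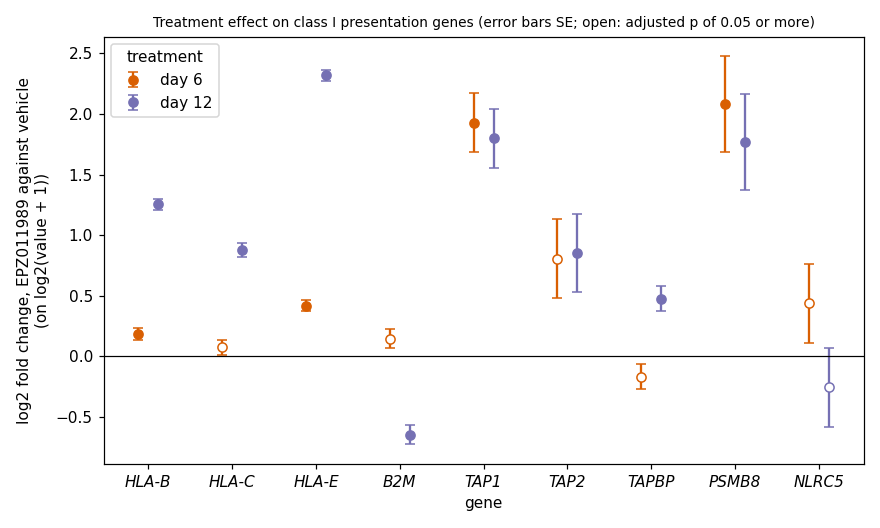
Log2 fold change of treated against vehicle cells (vertical axis) for each of the 9 genes (horizontal axis) at day 6 and day 12, with error bars for the SE and open points where the limma adjusted p was 0.05 or more. TAP1 and PSMB8 are raised at both days, HLA-B, HLA-C and HLA-E are higher at day 12 than at day 6, and B2M is below 0 at day 12.

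PSMB8, a catalytic subunit that replaces its standard counterpart in the immunoproteasome (chromosome 6, 32840717 to 32844679), had 16.5, 24.2 and 14.7 signal in day 6 vehicle cells and 71.9, 80.7 and 87.7 in treated cells. At day 12 PSMB8 had 10.0, 32.8 and 12.8 in vehicle and 60.8, 46.0 and 68.7 in treated cells. The groups did not overlap, and vehicle replicate 2 at day 12 was the highest of the vehicle libraries. The ratio of means was 4.33 at day 6 (2.08 ± 0.40 log2, limma adjusted p = 0.00175) and 3.16 at day 12 (1.77 ± 0.40, limma adjusted p = 0.00159). Reads assigned to PSMB8 held 43.6% of its table level, and on those edgeR gave 1.48 ± 0.71 log2 at day 6 (edgeR adjusted p = 0.127) and 2.38 ± 0.84 at day 12 (edgeR adjusted p = 0.0222).

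The other immunoproteasome genes went both ways. Of 4 tested, 2 fell and 0 rose at day 6 by limma (0 rose at an unadjusted p under 0.05), and 3 fell and 1 rose at day 12. PSMB9, a second inducible catalytic subunit, rose at day 12 from 2.85 ± 2.49 to 12.6 ± 0.0832 signal (2.02 log2, limma adjusted p = 0.0149). Both PSMB9 vehicle means were under 5 (2.98 at day 6), so it passed the filter through its treated groups. The size of its fold change is uncertain. PSMB10, the remaining inducible subunit, fell from 51.8 ± 13.2 to 22.9 ± 7.60 (-1.17 log2). The proteasome activator genes PSME1 and PSME2 fell at both days, by 0.72 and 0.41 on the log2 scale at day 12. Among 3 standard catalytic subunits PSMB6 fell at both days (-0.31 and -0.34 log2), while PSMB5 (-0.14 and -0.06) and PSMB7 (-0.18 and 0.06) did not pass.

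Of 6 peptide trimming genes 2 rose and 0 fell at day 6 by limma (0 fell at an unadjusted p under 0.05), and 2 rose and 1 fell at day 12. ERAP1, the aminopeptidase that trims peptides in the endoplasmic reticulum, went from 418 ± 40.9 to 561 ± 37.0 signal at day 6 (0.42 log2) and from 497 ± 85.8 to 823 ± 71.0 at day 12 (0.74 log2). The related gene ERAP2 was at 14.4 ± 3.34 and 34.9 ± 22.6 at day 12 and did not pass.

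**Figure D3:**
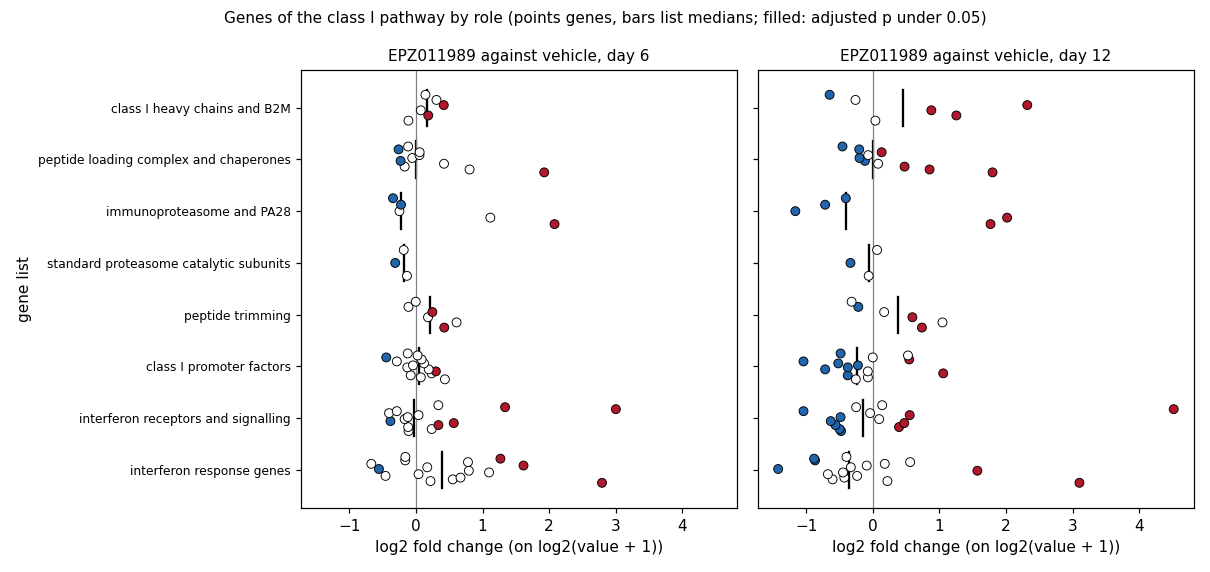
Log2 fold changes (horizontal axes) of the tested genes of 8 lists of the class I route (vertical axis), the 9 genes included, at day 6 on the left and day 12 on the right. Red points rose and blue points fell by limma, open points did not pass, and black bars are list medians, which stay within 1 log2 unit of 0. The highest gene, SOCS1, reaches 4.52 at day 12 from a low vehicle mean of 2.33 signal, so that size is uncertain.

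NLRC5, the transactivator of class I genes (chromosome 16, 56989557 to 57083520), did not pass in the table. It had 294, 268 and 170.4 signal in day 6 vehicle cells and 235, 456 and 311 in treated cells. At day 12 NLRC5 had 277, 116 and 290.2 in vehicle and 169, 174 and 186 in treated cells. The groups overlapped at both days. Its differences were 0.44 ± 0.33 log2 at day 6 (limma adjusted p = 0.379) and -0.26 ± 0.33 at day 12 (limma adjusted p = 0.517).

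On reads NLRC5 was lower in treated cells at day 12. Salmon reads summed over its matched transcripts held 97.1% of the table level and numbered 295, 233 and 239 in day 6 vehicle libraries and 314, 255 and 277 in treated ones. At day 12 they numbered 218, 242 and 280 in vehicle and 155, 172 and 160 in treated libraries, with no overlap. edgeR gave -0.83 ± 0.14 log2 at day 12 (edgeR adjusted p = 7.72e-05) and 0.20 ± 0.13 at day 6 (edgeR adjusted p = 0.272). By DESeq2 the day 12 value was -0.83 (adjusted p = 7.34e-07). In the table, the fall also passed without vehicle replicate 2 of day 12, the lowest library of that group (-0.68 log2, limma adjusted p = 0.0440). Why that library is lowest in the table and not set apart in the reads was not tested.

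**Figure D4:**
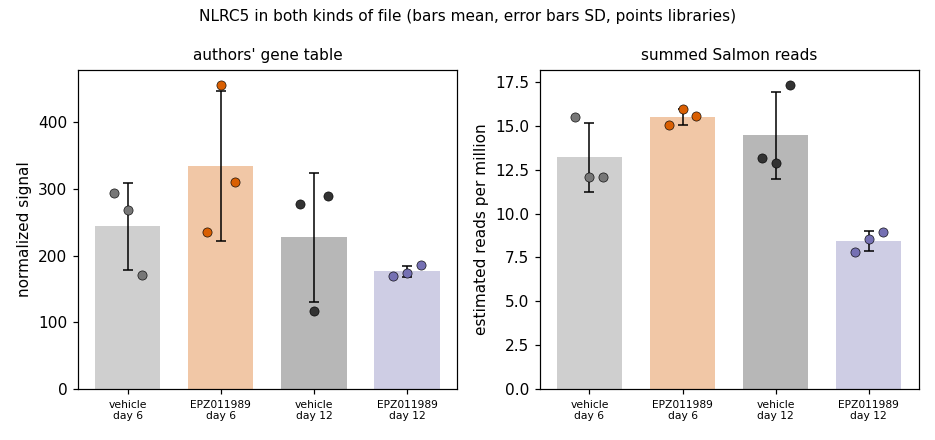
NLRC5 by group (horizontal axes) as normalized signal in the authors' table on the left and as summed Salmon reads scaled to library size on the right (vertical axes from 0), with bars for the mean, error bars for the SD and points for libraries. Replicate 2 of the vehicle libraries at day 12 is the lowest point on the left (116), while on the right the 3 treated day 12 libraries (7.83 to 8.93) are below all others.

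Of 13 other factors of the class I promoters 1 rose and 1 fell at day 6, and 2 rose and 7 fell at day 12. IRF1, an interferon-induced activator of class I genes, fell at day 12 (ratio of means 0.490, -1.04 log2, limma adjusted p = 5.99e-04). Among the RFX subunits RFX5 did not pass (-0.08 log2), RFXAP fell (-0.38) and RFXANK rose from 319 ± 21.8 to 666 ± 68.5 signal (1.06). IRF2 rose by 0.55 log2.

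Of 14 interferon receptor and signalling genes 4 rose and 1 fell at day 6, and 4 rose and 6 fell at day 12. The kinase gene JAK1 rose at both days (0.57 and 0.47 log2) and JAK2 fell at both (-0.38 and -0.63). The receptor genes IFNAR1 (-0.48), IFNAR2 (-0.50) and IFNGR2 (-0.56) fell at day 12, while IFNGR1 rose (0.39 log2). SOCS1, a feedback inhibitor of JAK signalling, went from 3.71 ± 3.20 to 31.1 ± 3.47 signal at day 6 (3.00 log2, limma adjusted p = 0.00558) and from 2.33 ± 3.12 to 55.6 ± 10.1 at day 12 (4.52 log2, limma adjusted p = 5.68e-05). With vehicle means under 5, SOCS1 passed the filter through its treated groups, and the size of its fold changes is uncertain.

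Of 28 interferon response genes in the table, 12 had a mean under 5 and were not tested. Among these, BST2, CXCL10 and GBP1 lay above vehicle without overlap at day 12, an order that 32.7% of tested genes showed. They had 5.15 ± 2.90, 10.6 ± 5.23 and 7.51 ± 3.83 signal in treated cells, and means of 0, 0.360 and 0.131 in vehicle. These levels are low, and the differences were not tested. The others overlapped at day 12, and the counts that follow leave all of them out. Of the 16 tested, 3 rose and 1 fell at day 6, and 2 rose and 3 fell at day 12. ISG15, a ubiquitin-like modifier, rose at both days. It went from 2.02 ± 3.50 to 13.6 ± 7.90 signal at day 6 (2.80 log2) and from 2.45 ± 2.42 to 24.0 ± 10.9 at day 12 (3.10 log2). Its vehicle means were under 5, so ISG15 passed the filter through its treated groups and the size of these fold changes is uncertain. OAS3, which senses double-stranded RNA, fell at both days, at day 12 from 3237 ± 203 to 1209 ± 120.3 (-1.42 log2). HERC5, the ligase that attaches ISG15, rose at day 6 (1.27 log2) and fell at day 12 (-0.88).

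Class II presentation was partly under the filter, with 5 of 10 genes tested. HLA-DQB1, a class II beta chain, rose at day 12 from 8.79 ± 7.25 to 58.8 ± 6.45 signal (2.91 log2, limma adjusted p = 2.23e-04) and was the 1 gene of the 5 to pass. CIITA, the class II counterpart of NLRC5, had 0.48 log2 and did not pass. Of 9 genes that act on class I molecules after synthesis 4 rose and 1 fell at day 6, and 6 rose and 0 fell at day 12 by limma (1 fell at an unadjusted p under 0.05). SUSD6 and WWP2, whose products help remove class I molecules from the surface, had 1.00 and 0.60 log2 at day 12, both past the test. IRGQ, which directs misfolded class I molecules to autophagy, had 1.41. At day 6 SUSD6 did not pass (-0.07 log2). TMEM127 of the same list was the gene that fell at day 6 (-0.24 log2, limma adjusted p = 0.0481). At day 12 TMEM127 did not pass (-0.19 log2, limma adjusted p = 0.0549), and its treated libraries lay below vehicle at both days. Of 12 genes reported to restrain class I transcription 2 rose and 0 fell at day 6 by limma (2 fell at an unadjusted p under 0.05), and 3 rose and 5 fell at day 12. MYCL rose at both days (0.63 and 1.64 log2), SUZ12 (-0.66) and KDM2B (-1.48) fell at day 12, and EED (-0.23) did not pass.

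The treatment effect itself differed between the days for 5 of the 9 genes, 4 with a higher and 1 with a lower effect at day 12, against 17.2% and 19.1% of all tested genes (36.3% in either direction). The day 12 effect minus the day 6 effect was 1.90 ± 0.07 log2 for HLA-E, 1.07 ± 0.07 for HLA-B, 0.81 ± 0.09 for HLA-C and 0.65 ± 0.15 for TAPBP. For B2M it was -0.79 ± 0.11 in the table, and edgeR on its assigned reads did not call it (-0.35 ± 0.25 log2, edgeR adjusted p = 0.276). TAP1 (-0.13 ± 0.35), TAP2 (0.05 ± 0.46), PSMB8 (-0.32 ± 0.56) and NLRC5 (-0.69 ± 0.46) did not pass. The summed reads of NLRC5 gave -1.03 ± 0.19 log2 (edgeR adjusted p = 4.35e-04) for the same term, and without vehicle replicate 2 of day 12 the table gave -1.12 (limma adjusted p = 0.0291). Between day 12 and day 6 in vehicle alone, 0 of the 9 passed limma (1, B2M, at an unadjusted p under 0.05), against 0.468% higher and 0.475% lower of all tested genes (0.943% in either direction). On assigned reads, which held 32.75% of the HLA-C table level, edgeR called HLA-C lower in vehicle at day 12 (-0.24 ± 0.07 log2, edgeR adjusted p = 0.0336), and 0 of the other 6 genes it tested passed. B2M passed limma there without vehicle replicate 3 of day 12 (limma adjusted p = 0.0157).

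Across the 12 libraries the log2 levels of HLA-B, HLA-C and HLA-E ran together (Pearson r = 0.984 for HLA-B with HLA-C and 0.995 for HLA-B with HLA-E), and TAP1 ran with PSMB8 (r = 0.859). B2M ran against HLA-B (r = -0.818), and for NLRC5 with HLA-B r was -0.384. These values describe 12 points that share 4 groups and are given without a test. By the same measure the genes outside the set most like HLA-E were GRPEL2, SEMA6B and CRIP2 (r of 0.998 to 0.996). CRIP2 and GRPEL2 were also close to HLA-B (0.995 and 0.994), and those most like HLA-C were PRR15L, PTPRS and STRC (0.991 to 0.988). GPR27, RORB and ZNF853 were closest to TAP1 (0.988 to 0.977), CACNA1H, LAYN and TSKU to PSMB8 (0.958 to 0.957), and EIF3M, ACTB and PTP4A2 to B2M (0.971 to 0.964). TAP2 was nearest PDCD4, ERICH5 and VPS8 (0.935 to 0.911), TAPBP was nearest SHROOM3, SPTBN1 and UBE3B (0.960 to 0.951), and NLRC5 had the lowest values, with FAM3A, AKAP1 and CDKN2AIPNL (0.883 to 0.809).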

How the data were processed

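RNA of 12 MKL-1 libraries was analysed, 3 for each of 4 groups taken from the labels. The authors deposited a normalized gene signal for the series and, per library, Salmon's expected counts per transcript. Salmon 1.2.0, DESeq2, FastQC and hg38 are named in the submitters' processing notes, and the sources used here do not give the exact normalization. The table was the main source because transcripts of HLA genes and PSMB8 were assigned to genes only in part.

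Of 28813 genes 14946 had a mean signal of at least 5 over all libraries. They were fitted with limma 3.58.1 (R 4.3.3) on log2(signal + 1), with an intensity trend, in 1 fit of the 4 groups, two-sided, with Benjamini-Hochberg adjustment over all tested genes. The script was tested on simulated data. The estimated counts were summed by GENCODE 29 gene symbol, rounded and tested with edgeR 4.0.16 and DESeq2 1.42.0. Members whose sums held under 80% of their table level, relative to the median gene, were left out of those alternatives, a limit set after seeing the data. Where edgeR tested them, their values are given as values on reads assigned in part. HLA-E and TAP2 had no edgeR value. Coordinates and promoters are from RefSeq (GRCh38.p14).

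The 9 genes and all gene lists were chosen with earlier results of these data known. Named genes were all 9, pathway genes listed by role, up to 4 more per list by their p at day 12, and the 3 genes with the highest Pearson correlation to each of the 9. A few genes these rules name are not reported here. The long interferon motif was added after a first search with the short one.

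Same-numbered libraries of different groups did not deviate together, so the replicate number was no block in the fit. Other alternatives were pseudocounts of 0.5 and 5, no filter, a filter at a mean of 50, no trend, the libraries of a contrast alone, rescaling to the median gene, and leaving out each library.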

Additional observations from a re-analysis of the deposited data

Results flagged for a closer look

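The effect of EPZ011989 differed between day 6 and day 12 for 5 of the 9 genes by limma's interaction term, against 36.3% of all tested genes. The day 12 effect exceeded the day 6 effect by 1.90 log2 for HLA-E, 1.07 for HLA-B, 0.81 for HLA-C and 0.65 for TAPBP, and for B2M the difference was -0.79 log2. In each of the alternatives run on the authors' table, leave-one-out included, these 5 differences kept their sign and passed, with the highest adjusted p at 0.0122 for TAPBP. On assigned reads edgeR did not call the difference for B2M (-0.35 log2, edgeR adjusted p = 0.276) or TAPBP (1.62 log2, edgeR adjusted p = 0.337).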

How the results depend on the processing

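Treatment effects at day 6 and day 12 kept their direction under the alternatives run on the table, and the calls these changed are given with HLA-B, TAP2 and NLRC5 above. edgeR and DESeq2 on summed reads served as alternatives for TAP1 and NLRC5. On reads assigned only in part, edgeR turned HLA-C at day 6 (-0.11 log2) and did not call HLA-B (edgeR adjusted p = 0.304) or PSMB8 (0.127) at day 6, B2M (0.241) or TAPBP (0.183) at day 12, or the difference between days for B2M (0.276) and TAPBP (0.337). Those reads held 0.841% of the table level of HLA-B and 1.47% of that of TAPBP. For HLA-E (0.0445%) and TAP2 (0.109%) edgeR gave no value, so no read-based alternative exists for them. The fit to the libraries of a contrast has no value for the difference between days. Same-numbered libraries shared only a number (correlations of -0.0475 to 0.0372 over 18 pairs). With the replicate block 3429 genes were called at day 6 and 8884 at day 12, against 3542 and 8930, the TAP2 call at day 12 was lost (limma adjusted p = 0.0509), and 1 of the 9 genes (B2M, limma adjusted p = 0.0366) instead of 0 was higher in vehicle at day 12 than at day 6.

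The 141 genes called between the vehicle groups became 63 without a filter, 214 at a mean of at least 50, 17 without the trend, 1 with the vehicle libraries alone, 1980 by edgeR and 2770 by DESeq2, and 10 to 1157 with 1 library left out. The cause was not tested. In that comparison TAP1 turned to 0.0651 log2 by edgeR and 0.0750 by DESeq2, and NLRC5 to 0.13 and 0.14. Leaving out 1 library gave ranges that include 0 there for HLA-E (-0.0498 to 0.0156), TAP1 (-0.26 to 0.14), TAP2 (-0.18 to 0.53), TAPBP (-0.0246 to 0.0298), PSMB8 (-0.63 to 0.18) and NLRC5 (-0.41 to 0.25). For the difference between days it did so for TAP1 (-0.36 to 0.0507), TAP2 (-0.21 to 0.51) and PSMB8 (-0.64 to 0.17). It left 1 to 2 of the 9 genes lower at day 12, 1 to 2 lower for the difference between days and 0 to 1 higher between vehicle groups.

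The low signal of PSMB8 and the 3 libraries per group limit precision. For genes whose reads were assigned only in part, the depth behind single table values is not known.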
